A study of Mus musculus with 66 samples.

Results

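Group D1/2 holds differentiated C2C12 lines that share a low score on the PC2 axis of gene expression, and it joins lines with different kinds of histone H3 transgene. Of 66 samples in the series and 20 mRNA-Seq libraries, 6 differentiated libraries are described here. They come from the 3 H3mm lines (H3mm12, H3mm13 and H3mm16), whose GFP-tagged histone is close to H3.3 in sequence, and from the 3 H3.1/2 lines (H3.1, H3.2 and H3t), whose GFP-tagged histone is of the replication-linked type. The members were chosen by a measured value, the PC2 score of these same libraries. In the paper the group also includes wild-type cells. The scores given here were recomputed from the FPKM values of the GFP-H3 libraries and are not the paper's own. They were -13.18, -5.28 and -7.51 in the H3mm12, H3mm13 and H3mm16 lines and -9.07, -2.63 and -10.47 in the H3.1, H3.2 and H3t lines. In the GFP-H3 lines left out of the group the score was 17.76 (H3.3), 21.78 (H3mm7) and 12.92 (H3mm11). The nearest values on either side of the boundary were thus -2.63 and 12.92. The split of the 6 lines into 2 sets follows the histone that each line makes, not a measured value.

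Each line is C2C12, a mouse myoblast line that leaves the cell cycle and forms myotubes when serum is lowered. All 6 lines carry the Tet-On transactivator under the CAG promoter and an EGFP-H3 fusion under a doxycycline-inducible promoter, both inserted by a transposon, and were kept as stable lines after selection with doxycycline and G418 and sorting for GFP. Each was grown in 20% fetal bovine serum (G, growth) or moved to 2% horse serum at confluence and harvested 48 h later (D, differentiated). There was 1 library per line and state. The 3 libraries of a set are therefore different lines with different transgenes rather than repeats of a line, and p-values below measure a difference between sets against the spread of lines within a set. Differences in insertion, dose and clonal history between lines cannot be told apart from the histone.

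Histone H3 packs DNA in nucleosomes. H3.1 and H3.2 are made in S phase from clustered genes and laid down behind the replication fork, while H3.3 is made throughout the cycle and laid down at active genes and regulatory regions by its own chaperones. H3t is a testis histone close to H3.1. In muscle cells, MyoD and related factors start the programme, myogenin and the MEF2 factors carry it on, and genes of the sarcomere, of calcium release and of creatine metabolism are switched on as cells leave the cycle and fuse.

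The 3 H3mm genes are shown beside H3f3a, a gene of H3.3, because the only gene that passed the test in differentiated cells belongs to them. Each reading frame has 408 bases. In the mouse build NCBIM37 (mm9) the H3mm12 frame (Gm12657) lies at chr4:94266076-94266483 (+), in an exon of a gene annotated as a pseudogene, the H3mm13 frame (Gm10257) at chr13:101716363-101716770 (−), annotated as coding, and the H3mm16 frame (H3f3a-ps1) at chrX:99019854-99020261 (+), in a pseudogene exon. The H3f3a frame is made of 3 coding exons within chr1:182733211-182742057 (−). The H3mm12, H3mm13 and H3mm16 frames are identical to H3f3a at 402, 404 and 401 bases (98.5%, 99% and 98.3%). Against H3f3a, the frames of Gm12260 (H3t), Hist1h3a (H3.1) and Hist2h3b (H3.2) are 74.4%, 77.6% and 77.3% identical over the aligned bases. The first 99 bases of the 4 frames follow, with bases that differ from H3f3a in capitals.
H3f3a: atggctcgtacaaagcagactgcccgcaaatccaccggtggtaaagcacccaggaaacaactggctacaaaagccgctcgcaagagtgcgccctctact
H3mm12: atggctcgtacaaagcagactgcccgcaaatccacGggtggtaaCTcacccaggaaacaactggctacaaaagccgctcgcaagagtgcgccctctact
H3mm13: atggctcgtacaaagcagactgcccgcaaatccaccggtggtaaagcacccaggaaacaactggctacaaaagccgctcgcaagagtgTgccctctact
H3mm16: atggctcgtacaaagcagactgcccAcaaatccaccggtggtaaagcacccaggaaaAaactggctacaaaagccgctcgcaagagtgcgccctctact
Counted from 1 at the start codon, with the H3f3a base named first, the differences in this stretch are C36G, A45C and G46T in H3mm12, C89T in H3mm13, and G26A and C58A in H3mm16.

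Gm12657, the H3mm12 gene, was called higher in the H3mm lines. Here and below the 3 values of the H3mm12, H3mm13 and H3mm16 lines come first, then those of the H3.1, H3.2 and H3t lines, in FPKM (mapped fragments per kilobase of exon, scaled to the size of the library). The level was 128, 134 and 45.2 against 0.59, 1.33 and 1.19 FPKM in differentiated cells and 274, 71.7 and 44.3 against 0.248, 0.841 and 0.908 FPKM in growth. The sets did not overlap in either state, and the difference in differentiated cells was 5.53 ± 0.40 (SE) on the log2(FPKM + 1) scale (adjusted p = 0.00701). The call was lost without the H3mm12, the H3.1 or the H3t line (adjusted p of 0.082, 0.117 and 0.0703), where the difference was still 5.29, 5.36 and 5.59. It was also lost with no filter on low values (adjusted p of 0.126). Of the other lines, H3mm11 had 4.67 FPKM in differentiated cells, against 0.597 in H3.3 and 0.192 in H3mm7. In differentiated cells the Gm12657 level was as high in H3mm13 as in H3mm12 and lower in H3mm16, while in growth it was highest in H3mm12. The frames of H3mm13 and H3mm16 match that of H3mm12 at 400 and 397 of 408 bases, and those of H3f3a (H3.3) and Gm6421 (H3mm7) at 402 and 399. The transgene of the H3mm12 line carries the H3mm12 coding sequence, so its RNA can be counted under Gm12657. In wild-type C2C12, without a tagged histone, the level was 0.231 FPKM in growth and 0.106 FPKM in differentiated cells. How reads of such near-identical frames were divided among the genes was not tested. The part of transgene RNA in the value was not tested either, and the gene's own level is uncertain in each line. Of 21 H3 genes looked for, Gm12657 was the only 1 with a row in the table.

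**Figure D1:**
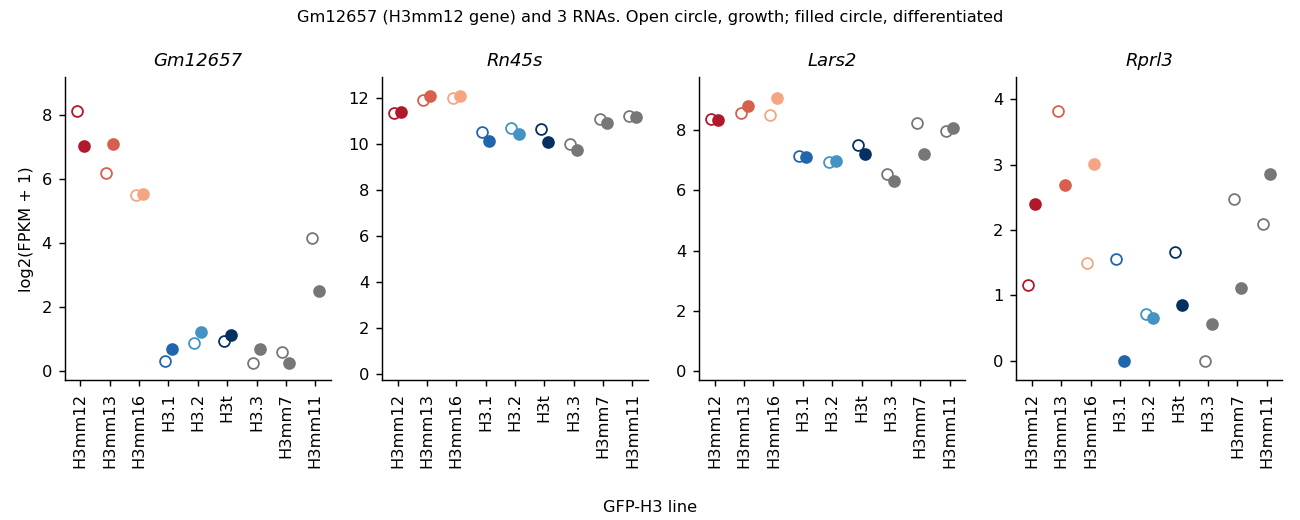
Level of Gm12657 (the H3mm12 gene) and of Rn45s, Lars2 and Rprl3 in 9 GFP-H3 lines, as log2(FPKM + 1). Open circles are growth and filled circles differentiated libraries, 1 of each per line. Gm12657 was at least 44.3 FPKM in the 3 H3mm lines in both states and at most 1.33 FPKM in the 3 H3.1/2 lines.

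The 6 differentiated libraries listed 14540 to 15476 genes above 0 FPKM. The depth in reads is unknown, and intervals for counting error were not computed. At 17 genes, at least 1 of the 6 libraries was listed at 0 while the median of the others was over 20 FPKM, so an exact 0 may not be a measurement. Over the 10855 genes with a mean of at least 1 FPKM, Pearson's r between libraries was 0.974 to 0.986 for the 3 pairs within the H3mm set, 0.944 to 0.960 within the H3.1/2 set and 0.942 to 0.969 for the 9 pairs between sets. These are correlations across genes, which are not independent. The H3mm set was therefore the more uniform. H3.2 was closer to H3mm12, H3mm13 and H3mm16 (r of 0.9585, 0.9692 and 0.9645) than to H3.1 (0.9443) or H3t (0.955), the partners in its own set. The genes nearest to the filter were Dock8, kept with a mean of 1.001 FPKM, and Fam129c, left out with 0.9994.

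Over those 10855 genes, limma called 1 gene higher (0.00921%) and 0 lower (0%) in the H3mm lines, where a call needed an adjusted p below 0.05 and means 1 or more apart in log2(FPKM + 1). At an unadjusted p below 0.05 there were 1816 genes (16.7%), and 16 genes had an adjusted p under 0.06. In addition, genes were named "separated" where the 3 H3mm values lay all above or all below the 3 H3.1/2 values and the means differed by at least 1. There were 189 separated genes higher (1.74% of genes tested) and 75 lower (0.691%). Separation is a description and carries no test, and an exact permutation test of 3 against 3 lines cannot give a two-sided p below 0.1.

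The H3.2 line decided how many genes were called. Without it, limma called 189 genes higher (1.74% of 10870) and 77 lower (0.708%). Of the 189 and 75 genes separated over all 6 lines, 119 and 29 were among these calls. Among the H3.1/2 lines, H3.2 was the line nearest to the H3mm set at 131 of the 189 genes and at 57 of the 75. Separation was also more frequent without H3.2, at 336 genes higher and 223 lower of 10870. Calls without H3.2 are given below beside the values, with the reminder that this line was left out with its values known and that 2 lines then stand for the H3.1/2 set.

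**Figure D2:**
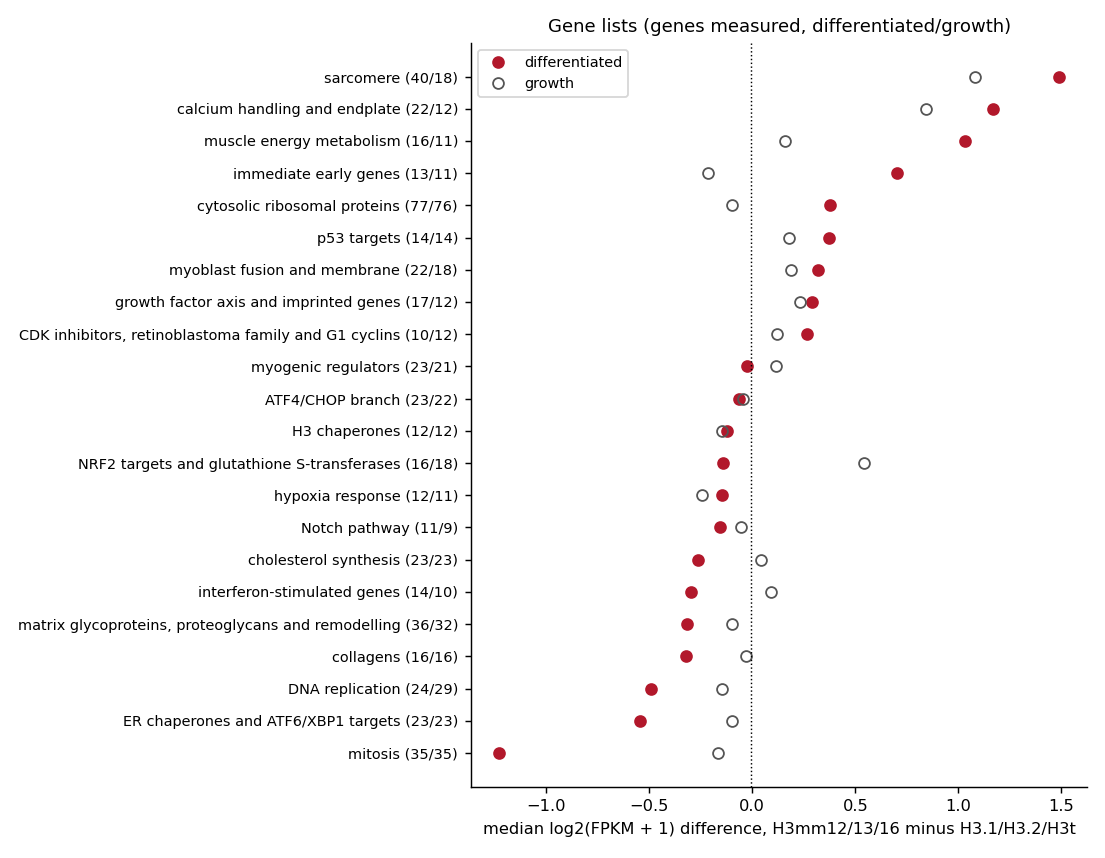
Median difference between the H3mm and the H3.1/2 lines on the log2(FPKM + 1) scale for 22 gene lists (the H3 genes, with 1 gene measured, and the cell type markers are not drawn), in differentiated cells (filled) and growth (open), with the number of genes measured in each state. The dotted line is the median of all genes tested in differentiated cells (-0.00459). Among the lists drawn, in differentiated cells, sarcomere genes lay farthest to the right (1.49) and mitosis genes farthest to the left (-1.23).

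Genes of the sarcomere, the contractile unit of muscle, had higher values in the H3mm lines throughout. All 40 of the 46 listed genes that passed the filter had a positive difference, with a median of 1.49 against -0.00459 for all genes tested, and 28 were separated higher. None was called over the 6 lines. Without H3.2, 25 of 40 were called higher and the median was 1.90. As the filter uses the mean of all 6 libraries, a listed gene low in the H3.1/2 lines can pass through its H3mm values. Listed genes low in both sets were left out. Counts and medians of this list and of the calcium, endplate and energy lists below can lean toward higher values in the H3mm lines. The mean log2(FPKM + 1) of the 40 genes was 7.55, 6.69 and 6.93 in the H3mm lines and 5.31, 6.16 and 5.25 in the H3.1/2 lines, so the order of lines was H3mm12, H3mm16, H3mm13, H3.2, H3.1 and H3t. In bulk RNA, fewer differentiated cells and less muscle RNA per cell cannot be told apart.

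Wild-type C2C12, without a tagged histone, has 1 differentiated library, and it stood apart from the GFP-H3 lines. Its summed FPKM was 465247 against 583613 to 894105 in the 9 differentiated GFP-H3 lines, and the mean log2(FPKM + 1) of the 77 ribosomal protein genes was 4.99 against 10.11 to 11.33. Rpl36, a protein of the large ribosomal subunit, was at 2.64 FPKM in it and at 1206 to 6189 FPKM in those lines. How the wild-type reads were mapped is not given in the sources used here, so its levels are given with no comparison. They were 7.48 for the mean of the 40 sarcomere genes and 3.17 for that of the 35 mitosis genes. The H3.3, H3mm7 and H3mm11 lines had a sarcomere mean of 5.51, 5.32 and 5.19, near those of the H3.1 and H3t lines.

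Myl1, a myosin light chain of fast muscle, was at 3049, 2076 and 2564 against 363, 1169 and 384 FPKM. The H3.2 value lay between the sets and the other 2 H3.1/2 lines lay far lower. The difference was 2.21 ± 0.42 (SE) with an adjusted p of 0.109, and 0.00541 without H3.2. Actc1, the cardiac actin that embryonic muscle uses, was at 4205, 3342 and 2627 against 521, 1221 and 1029 FPKM, and Acta1, the skeletal actin, at 7352, 5581 and 6252 against 1463, 2934 and 1436 FPKM. Tnnc2, the calcium-binding troponin of fast fibres, was at 2648, 1983 and 1894 against 310, 1434 and 468 FPKM. For each of these 3 genes, chosen after their values were seen, the lowest H3mm value was above the highest H3.1/2 value, that of H3.2. Without H3.2 the adjusted p was 0.0265 for Actc1, 0.00633 for Acta1 and 0.00932 for Tnnc2.

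A further group of sarcomere genes was low in all 3 H3.1/2 lines, H3.2 included. Ttn, which encodes the giant spring protein titin, was at 17.1, 15 and 13.7 against 5.88, 4.88 and 4.07 FPKM. Its difference was 1.46 ± 0.17 (SE) (adjusted p = 0.0511). Myh7, the slow myosin heavy chain, was at 10.5, 4.85 and 7.33 against 1.35, 0.899 and 0.72 FPKM. Myh8, the perinatal heavy chain, was at 7.02, 2.76 and 4.46 against 0.036, 0.416 and 0.0749 FPKM. Tcap, which caps titin at the Z-disc, was at 8.83, 2.88 and 7.63 against 0.38, 0.0994 and 0.152 FPKM. The differences were 2.06 ± 0.27 (SE), 2.23 ± 0.29 (SE) and 2.52 ± 0.34 (SE), with adjusted p of 0.0528, 0.0551 and 0.0551. None of the 4 passed over the 6 lines and each was called without H3.2, at 0.0208, 0.0276, 0.0214 and 0.0331. H3.2 was not the highest of the H3.1/2 lines at Ttn, Myh7 or Tcap, in contrast to Myl1 and Tnnc2, but it was at Myh8. Myh8 and Tcap were below 1 FPKM in each H3.1/2 line, and Myh7 was so in H3.2 and H3t. These 3 genes passed the filter through their H3mm values.

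**Figure D3:**
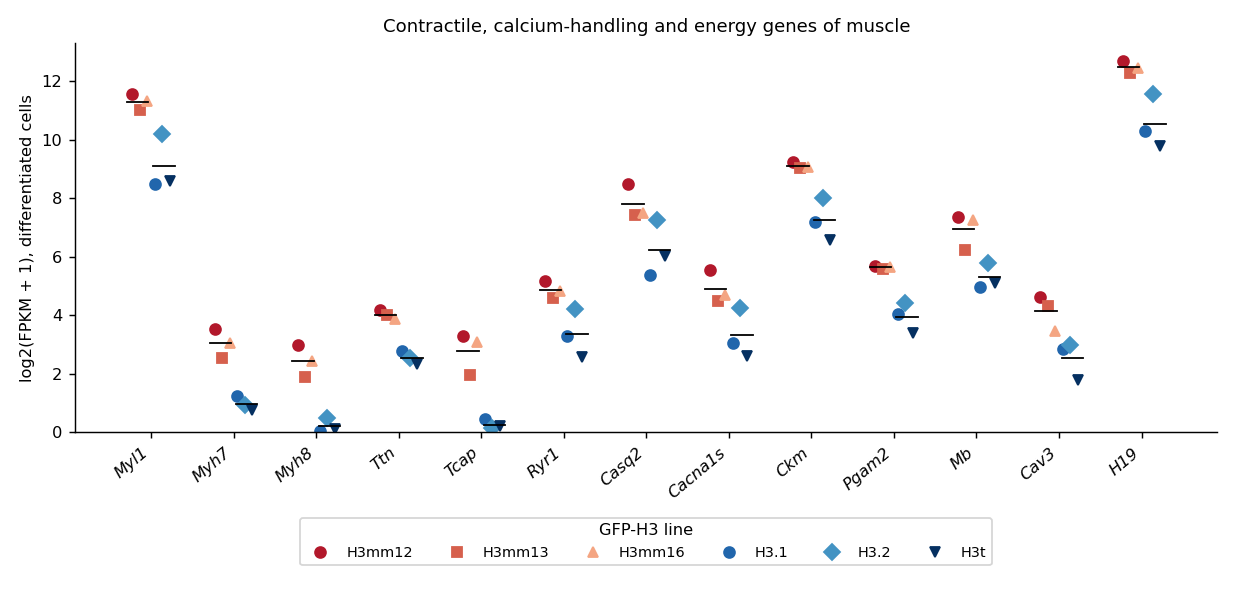
Level of 12 muscle genes and of H19 in the 6 differentiated lines, as log2(FPKM + 1). Red points are the H3mm lines, blue points the H3.1/2 lines and bars the mean of each set. Values of the sets did not overlap at any of the 13 genes, and H3.2 was the highest H3.1/2 line at 10 of them, the exceptions being Ttn, Myh7 and Tcap.

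Windows around the start of 2 of these genes are shown as examples of promoters in the group, from 250 bases before to 50 after the start in the RefSeq annotation of GRCm38.p6. The sequence of Actc1 has the CArG box, the site of serum response factor, in capitals, and that of Tnnc2 the E-box (CANNTG), the site of MyoD and related factors.
Actc1, chr2:114052826-114053125 (−): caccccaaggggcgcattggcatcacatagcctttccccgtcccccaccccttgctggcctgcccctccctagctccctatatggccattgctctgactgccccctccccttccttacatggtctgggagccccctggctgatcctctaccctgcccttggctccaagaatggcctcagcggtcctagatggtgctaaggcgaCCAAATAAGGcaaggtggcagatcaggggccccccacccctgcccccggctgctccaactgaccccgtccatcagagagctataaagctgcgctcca
Tnnc2, chr2:164779685-164779984 (−): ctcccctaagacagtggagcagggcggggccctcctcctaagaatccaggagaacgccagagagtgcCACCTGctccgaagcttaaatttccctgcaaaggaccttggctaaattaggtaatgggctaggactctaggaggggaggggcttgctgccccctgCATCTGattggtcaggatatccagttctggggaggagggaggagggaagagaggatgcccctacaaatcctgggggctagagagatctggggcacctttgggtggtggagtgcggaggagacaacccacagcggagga
Both strands were searched. The CArG box was present in 5 of 31 sarcomere windows (16.1%) and in 1.38% of the 8129 windows of genes tested, and an E-box in 26 of 31 (83.9%) and in 61.7%. Of the 127 windows that matched the 189 genes separated higher, 8 held a CArG box (6.30%) and 100 an E-box (78.7%). A match is a stretch of letters and not a measured site.

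Genes of calcium release and of the neuromuscular endplate also had higher values in the H3mm lines. Of 26 listed, 22 passed the filter, 21 had a positive difference (median 1.17), 12 were separated higher and 0 were called. Without H3.2, 13 were called higher. Cacna1s, the voltage sensor of the calcium release complex, was at 45.6, 21.6 and 25.2 against 7.42, 18.2 and 5.11 FPKM. Ryr1, the release channel itself, was at 35.5, 23.1 and 27.8 against 8.83, 17.6 and 4.95 FPKM. Casq2, which stores calcium in the sarcoplasmic reticulum, was at 356, 171 and 181 against 41.1, 154 and 64.7 FPKM. For each of the 3 the H3.2 value was just under the lowest H3mm value, while H3.1 and H3t were lower by several fold, and the adjusted p was 0.156, 0.142 and 0.19 over the 6 lines. Musk, the endplate receptor kinase, overlapped between the sets at 19.2, 7.82 and 15.7 against 1.64, 4.43 and 9.26 FPKM. Art1, an ADP-ribosyltransferase of the muscle surface, was at 27.5, 14 and 12.6 against 1.67, 3.18 and 1.84 FPKM with a difference of 2.51 ± 0.31 (SE) (adjusted p = 0.0511).

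Of 20 genes of muscle energy metabolism, 16 passed the filter, 6 were separated higher and the median difference was 1.03. Without H3.2 it was 1.78, with 10 of 15 separated higher, against 336 of 10870 over all genes. Ckm, the muscle creatine kinase, was at 607, 527 and 541 against 144, 257 and 94.9 FPKM. Its 3 H3mm values lay within a narrow range and the H3.2 value was the nearest of the others. Pgam2, a glycolytic mutase of muscle, was at 50.5, 47.1 and 49.3 against 15.5, 20.3 and 9.55 FPKM, Cox8b, a subunit of cytochrome oxidase in muscle, at 686, 404 and 444 against 127, 237 and 70.1 FPKM, and Mb, myoglobin, at 164, 74.1 and 153 against 30.7, 54.8 and 33.8 FPKM. The differences of the 4 genes were 1.87 ± 0.33 (SE), 1.69 ± 0.25 (SE), 1.95 ± 0.42 (SE) and 1.65 ± 0.34 (SE). The smallest adjusted p among them was that of Pgam2 (0.0666). All 4 were called without H3.2, with an adjusted p of 0.00932, 0.0162, 0.0217 and 0.0404. The genes Gamt, Phkg1, Gys1 and Eno3 of the same list had differences below 0 and did not separate.

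Fusion and membrane genes differed less. Of 24 listed, 22 passed the filter, with a median difference of 0.321 and 3 genes separated higher. These were Cav3, the muscle caveolin, at 23.6, 18.8 and 10.2 against 6.3, 6.87 and 2.46 FPKM, Itgb1bp2 (melusin), at 106, 47.3 and 50.4 against 15.2, 33.6 and 19.3 FPKM, and Sgca, a sarcoglycan of the dystrophin complex, at 43.4, 32.6 and 28.4 against 16.4, 20.3 and 12.8 FPKM. Dysf, the membrane repair protein dysferlin, was at 11.4, 10.3 and 8.27 against 4.15, 7.12 and 3.41 FPKM. The sets did not overlap at these 4 genes, and the difference at Dysf was 0.94 ± 0.24 (SE), short of 1. The adjusted p over the 6 lines was 0.132, 0.139, 0.11 and 0.147.

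The regulators of myogenesis showed no common direction. Of 27 listed, 23 passed the filter, 11 had a positive difference, the median was -0.0272, 1 was separated higher and 2 lower. Mef2c, a late factor that acts on sarcomere genes, was at 4.15, 2.23 and 3.99 against 0.253, 1.07 and 0.496 FPKM. It was below 1 FPKM in H3.1 and H3t and passed the filter through its H3mm values. Myog, the factor of early differentiation, was at 1151, 701 and 657 against 333, 930 and 329 FPKM, and here only H3mm12 was above H3.2, so the sets overlapped (0.79 ± 0.42 (SE), adjusted p = 0.383). Myod1, the founding factor, chosen after its values were seen, was at 107, 64.4 and 62.4 against 38.1, 59.8 and 39.4 FPKM, apart by less than 1 between the sets. Myf5, a factor of proliferating myoblasts, was at 19.9, 22.2 and 32.8 against 38.6, 75.1 and 47.5 FPKM, and Snai2, a repressor found in undifferentiated cells, at 12.8, 25.2 and 28.9 against 42, 59.5 and 38.1 FPKM. Both were highest in the H3.2 line and lower in the H3mm lines, with an adjusted p of 0.151 and 0.172.

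Cell cycle genes had lower values in the H3mm lines. All 35 listed genes of mitosis passed the filter and all had a negative difference, with a median of -1.23, and 13 were separated lower. None was called over the 6 lines. Without H3.2, 8 of 35 were called lower and 34 were separated lower, against 77 and 223 of 10870 over all genes. The mean log2(FPKM + 1) of the list was 1.83, 0.912 and 1.31 in the H3mm lines and 3.44, 1.77 and 2.46 in the H3.1/2 lines. The list was thus highest in H3.1 and next in H3t, and the H3.2 line was just below H3mm12. Ccnb1, the cyclin that drives entry to mitosis, was at 3.5, 0.966 and 1.87 against 15.5, 3.59 and 9.43 FPKM. Top2a, topoisomerase II, was at 5.2, 1.39 and 2.32 against 20.8, 4.43 and 11.2 FPKM, and Birc5, survivin, at 7.3, 1.14 and 2.4 against 31, 5.45 and 9.45 FPKM. The sets overlapped at Top2a and Birc5 because H3mm12 was above H3.2, and the adjusted p of the 3 genes was 0.175, 0.205 and 0.265. In growth the same genes were many times higher in each line, as for Ccnb1 at 115, 107 and 109 against 104, 113 and 175 FPKM, and the median difference of the list was -0.167 with 0 of 35 genes separated.

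Cdca3, a mitotic gene chosen as an example because its window holds both motifs, was at 1.88, 0.932 and 1.13 against 12.9, 2.25 and 3.39 FPKM. Its window (GRCm38.p6, as above) follows with the cell cycle homology region (CHR, TTTGAA) and CCAAT boxes in capitals.
Cdca3, chr6:124829926-124830225 (+): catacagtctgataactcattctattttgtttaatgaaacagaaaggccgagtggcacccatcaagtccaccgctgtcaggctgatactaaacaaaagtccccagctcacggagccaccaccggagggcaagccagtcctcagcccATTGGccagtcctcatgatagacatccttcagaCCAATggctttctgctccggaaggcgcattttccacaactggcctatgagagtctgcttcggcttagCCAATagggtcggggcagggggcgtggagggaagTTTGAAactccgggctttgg
The CHR was present in 23 of 31 mitosis windows (74.2%) and in 11.1% of windows of genes tested, and the CCAAT box in 23 of 31 and in 39.3%. Of the 58 windows that matched the 75 genes separated lower, 20 held a CHR (34.5%) and 25 a CCAAT box (43.1%).

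DNA replication genes showed the same order of lines with smaller differences. All 24 that passed the filter had a negative difference (median -0.490), and 1 was separated lower, Tk1, thymidine kinase, at 5.28, 1.75 and 2.56 against 21.7, 5.36 and 9.03 FPKM. Without H3.2 the median was -0.811 over 25 genes and 8 were separated lower, against 223 of 10870 over all genes. Mcm5, Mcm6 and Uhrf1 were highest in H3.1 and H3t, and H3.2 lay among the H3mm lines. Mcm5, a subunit of the replicative helicase, was at 2.21, 0.373 and 1.25 against 9.55, 1.68 and 7.06 FPKM, and without H3.2 its difference of -2.10 was called (adjusted p = 0.0358). Ccnd1, the G1 cyclin, was at 10.8, 9.57 and 9.88 against 24.3, 11.3 and 29 FPKM, with the sets apart but by less than 1. Cdkn1a, the inhibitor that holds myotubes out of the cycle, was at 1180, 856 and 639 against 398, 765 and 445 FPKM, where H3.2 lay within the range of the H3mm lines. Of 15 listed inhibitors, retinoblastoma relatives and G1 cyclins, 10 passed the filter and 0 were separated, while without H3.2 1 was separated higher and 2 lower.

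**Figure D4:**
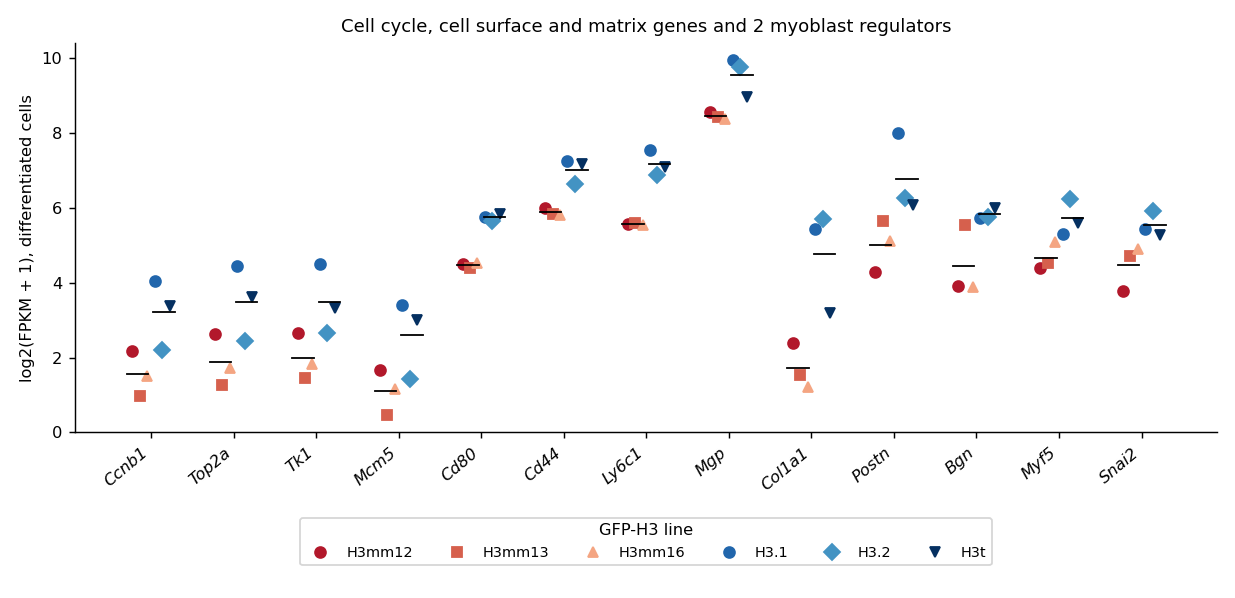
Level of cell cycle, cell surface, matrix and myoblast genes in the 6 differentiated lines, as log2(FPKM + 1). Colours are those of the plot of muscle genes. The H3mm values lay below the H3.1/2 values except at Top2a and Mcm5, where H3mm12 was above H3.2.

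Among single genes lower in the H3mm lines, 2 of the cell surface, Cd80 and Ly6c1, came closest to the threshold. Cd80, a costimulatory ligand best known from antigen-presenting cells, was at 21.6, 20.2 and 22.1 against 53.5, 49 and 55.9 FPKM. The 3 values in each set lay close together, and the difference was -1.27 ± 0.14 (SE) (adjusted p = 0.0511). Ly6c1, a GPI-anchored surface protein, was at 46.6, 47.4 and 45.8 against 185, 116 and 137 FPKM, with a difference of -1.60 ± 0.19 (SE) (adjusted p = 0.0511). Cd44, the hyaluronan receptor, was at 63.4, 55.9 and 54.9 against 152, 98.4 and 143 FPKM, with a difference of -1.14 ± 0.20 (SE) (adjusted p = 0.0866). All 3 were called without H3.2, at 0.0162, 0.0131 and 0.0167. The differentiated H3.3, H3mm7 and H3mm11 lines were as low as the H3mm lines or lower. They were at 19.5, 18.4 and 20.9 FPKM for Cd80 and at 30, 17.1 and 15.4 FPKM for Ly6c1. For Cd44 they were at 51.8, 44.5 and 54.9 FPKM. In growth the sets overlapped at Cd80 (23.2, 14.5 and 14.8 against 22.3, 15.5 and 22.6 FPKM) and at Cd44 (122, 100 and 96.5 against 98.7, 132 and 147 FPKM).

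The other 7 of the 10 lower genes named by rule were Ptplad2, Serpinb9b, Cmah, Gpr30, Tagln2, Ccdc80 and Lpar6. Their differences in differentiated cells ran from -1.52 (Ccdc80) to -1.08 (Ptplad2), with an adjusted p of 0.0866 to 0.109. Tagln2, an actin-binding protein of the transgelin family, was at 86.5, 81.4 and 100 against 295, 149 and 244 FPKM. Serpinb9b, a serine protease inhibitor, was at 88.3, 50.4 and 73.3 against 216, 154 and 172 FPKM. Cmah, an enzyme of sialic acid metabolism, was at 2.85, 1.63 and 2.31 against 11.3, 5.45 and 7.5 FPKM. At each of these 3 the H3.2 line was the lowest of the H3.1/2 lines.

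Matrix genes showed wide spread between lines. Of 21 collagen genes, 16 passed the filter and 2 were separated lower, Col1a1 and Col5a3. Their median of -0.322 became -0.686 without H3.2, with 5 of 16 separated lower, against 223 of 10870 over all genes. Col1a1, the main chain of fibrillar collagen, was at 4.29, 1.88 and 1.32 against 42.5, 51 and 8.2 FPKM. The difference of -3.07 ± 0.66 (SE) was the largest among the lower genes, but H3t was several fold below H3.1 and H3.2 and the adjusted p was 0.119. In growth its values were 4.61, 4.44 and 2.05 against 104, 70.4 and 6.39 FPKM, and H3t was again far below the other H3.1/2 lines. Col6a1, a chain of the microfibrillar collagen around muscle fibres, was at 8.06, 34.7 and 44.2 against 3.5, 1.84 and 18 FPKM, with the sets overlapping. Of 43 matrix glycoproteins, proteoglycans and remodelling genes, 36 passed, 5 were separated lower and 0 higher, with a median of -0.318. Without H3.2 the median was -0.666 and 9 of 36 were separated lower, against 223 of 10870 over all genes. The 5 were Postn, Aspn, Bgn, Timp1 and Mgp. Postn, periostin, was at 18.4, 49.2 and 33.8 against 255, 76.5 and 66.5 FPKM. Aspn, asporin, was at 7.53, 7.45 and 8.21 against 32.1, 10.1 and 48.3 FPKM, and without H3.2 its difference was called (adjusted p = 0.00864). Timp1, an inhibitor of matrix proteases chosen after its values were seen, was at 85.9, 64.7 and 75 against 335, 116 and 188 FPKM.

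Immediate early genes, which growth signals and serum response factor induce within minutes, had higher values in the differentiated H3mm lines. Of 15 listed, 13 passed the filter, 12 had a positive difference (median 0.704) and 4 were separated higher. Egr1 was at 142, 263 and 220 against 67.2, 52.5 and 22.8 FPKM, Egr2 at 5.46, 8.81 and 8.22 against 1.99, 1.26 and 1.34 FPKM and Fos at 11.4, 19.1 and 16.2 against 10.9, 4.93 and 1.43 FPKM. Egr1 and Egr2 are zinc finger factors and Fos is a subunit of AP-1. The difference was 2.20 ± 0.40 (SE) for Egr1 (adjusted p = 0.0961), 1.74 ± 0.22 (SE) for Egr2 (0.0511) and 1.55 ± 0.51 (SE) for Fos (0.213), and H3mm13 was the highest line at each. At Fos the highest H3.1/2 value, in H3.1, lay just under the lowest H3mm value. A CArG box was found in 0 of 9 windows of this list and in 0 of 14 of the calcium and endplate list, where the share over windows of genes tested was 1.38%. At that share so few windows can show no depletion. The windows run from 250 bases before to 50 after the start, and sites farther out were not searched. Srf, the factor itself, chosen after its values were seen, was at 32.7, 36.7 and 41.2 against 21, 14.5 and 16.8 FPKM. The pattern was not seen in growth, where 1 of 11 listed genes had a positive difference, the median was -0.217 and Egr1 was at 5.6, 7.58 and 6.12 against 9.12, 8.16 and 7.22 FPKM.

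Htra3, a secreted serine protease, had the smallest adjusted p after Gm12657 in differentiated cells, a value that it shared with other genes. It was at 14.7, 11 and 13.5 against 2.14, 2.12 and 3.66 FPKM, with a difference of 1.97 ± 0.21 (SE) (adjusted p = 0.0511), and the sets were also apart in growth (3.13, 1.95 and 1.43 against 0.311, 0.507 and 0.324 FPKM). Ccdc88c, a regulator of Wnt signalling, was at 7.95, 6.18 and 6.73 against 1.6, 2.07 and 2.08 FPKM with a difference of 1.45 ± 0.17 (SE). Both were called without H3.2 (0.0166 and 0.0181).

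In the list of growth factors and imprinted genes, 17 of 24 passed the filter. H19, a long noncoding RNA that is abundant in embryonic muscle, was at 6619, 5038 and 5691 against 1258, 3076 and 881 FPKM in differentiated cells and 578, 161 and 209 against 27.6, 56.6 and 29.4 FPKM in growth. The sets were apart in both states, and the adjusted p was 0.11 in differentiated cells and 0.00675 without H3.2. Igf2, its imprinted neighbour, was at 106, 78.5 and 54.6 against 74.1, 14.2 and 0 FPKM, where H3.1 lay among the H3mm lines and H3t was listed at 0. Igfbp2, an IGF-binding protein, was at 66.1, 30.3 and 44 against 836, 97 and 101 FPKM and stood highest in H3.1. Igfbp5, the IGF-binding protein induced in differentiating myoblasts, was at 430, 645 and 682 against 335, 264 and 282 FPKM, with the sets apart by 0.97 ± 0.21 (SE).

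The endoplasmic reticulum chaperones belong to the values on which the lines were grouped, and are given as a description. Hspa5, the chaperone BiP, was at 205, 576 and 247 against 331, 1687 and 263 FPKM, and at 3688, 2780 and 2330 in the H3.3, H3mm7 and H3mm11 lines. H3.2 was thus several fold above the other 5 lines described here and H3mm13 was next. The same order held for Pdia4, a disulfide isomerase, at 31.6, 65.1 and 36.5 against 60.3, 186 and 46.2 FPKM. Of 23 chaperone genes that passed the filter, 0 were separated and the median difference was -0.544, which became -0.0378 without H3.2. The mean log2(FPKM + 1) of the list was 7.34 in H3.2 and 5.75 to 6.26 in the other 5 lines. For 23 genes of the ATF4/CHOP branch the mean was 7.01 in H3.2, 6.32 in H3mm13 and 6.19 in H3mm16, against 5.12 to 5.36 in H3mm12, H3.1 and H3t. The median difference of this branch was -0.0666, with 0 separated. Without H3.2 it was 0.408, with 3 of 22 separated higher, against 336 of 10870 over all genes.

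Other lists held few or no separated genes. None of 14 interferon-stimulated genes, 23 of cholesterol synthesis, 14 p53 targets, 11 of the Notch pathway or 12 H3 chaperones that passed the filter was separated, and their medians ran from -0.298 to 0.371. In that order, 3, 1, 13, 3 and 3 of them had a positive difference, against 5362 of 10855 over all genes. Without H3.2 the medians ran from -0.311 to 0.468, with 2 p53 targets separated higher and 2 H3 chaperones lower. Among these, Notch3 was at 11.5, 10.8 and 12.6 against 27.4, 20.5 and 18.3 FPKM, and Asf1b, an S-phase histone chaperone, at 3.95, 1.8 and 2.7 against 10.3, 2.87 and 6.16 FPKM. Of 16 NRF2 targets and glutathione S-transferases, 1 was separated higher, Gsta3, at 2.23, 4.98 and 7.25 against 0.622, 0.484 and 1.6 FPKM. Gsta3 was below 1 FPKM in H3.1 and H3.2 and passed the filter through its H3mm values. Of 12 genes of the hypoxia response, 1 was separated higher, Egln3, a prolyl hydroxylase, at 23.4, 27.3 and 16.7 against 7.77, 9.65 and 10.2 FPKM. The 77 cytosolic ribosomal protein genes that passed had a median difference of 0.377, 75 were positive and 54 did not overlap between the sets, against 1399 of 10855 over all genes, but under quantile normalization the median was -0.0176 and 7 did not overlap.

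RNAs that bear on library content differed in level between the sets. Rprl3, an RNA related to RNase P, was at 4.27, 5.45 and 7.08 against 0, 0.582 and 0.807 FPKM and Lars2, the mitochondrial leucyl-tRNA synthetase, at 319, 442 and 531 against 135, 124 and 146 FPKM, both named by rule. Rprl3 was below 1 FPKM in each H3.1/2 line and passed the filter through its H3mm values. Rn45s, the ribosomal RNA precursor, was at 2699, 4332 and 4423 against 1118, 1373 and 1094 FPKM, and Rpph1, the RNA of RNase P, at 22.4, 21.2 and 18.5 against 0.688, 6.22 and 2.76 FPKM, both chosen after their values were seen. Rn45s was 0.344% to 0.622% of the summed FPKM in the H3mm libraries and 0.18% to 0.21% in the H3.1/2 libraries. The sets were also apart in growth at Rn45s (2648, 3915 and 4124 against 1486, 1684 and 1626 FPKM), Lars2 (324, 372 and 360 against 140, 122 and 179 FPKM) and Rpph1 (11.4, 17.9 and 12 against 7.19, 3.54 and 4.21 FPKM), while at Rprl3 they overlapped. The part of library content in the differences described above was not tested.

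Markers of other cell types were read beside the muscle genes. The 6 skeletal muscle markers summed to 12841 to 17199 FPKM in the differentiated H3mm lines and 4301 to 9185 FPKM in the H3.1/2 lines, and all 6 were present in each set. The adipocyte list summed to 23.3 to 53.6 FPKM against 15 to 17.8, with Plin1, Cidec and Cfd at 0 in the 6 lines, and its part in the muscle differences was not tested. Its leading gene was Lpl, lipoprotein lipase, chosen after its values were seen, at 12.3, 18.7 and 34.4 against 4.71, 1.81 and 5.84 FPKM. The smooth muscle list summed to 1869 to 3286 against 1082 to 2169 FPKM, of which Acta2 gave 93%. All 5 smooth muscle markers that passed the filter had a positive difference (median 1.08), and Tagln and Lmod1 were separated higher. Without H3.2 the median was 0.6 and 0 were separated. Tagln, an actin-binding protein, was at 173, 120 and 204 against 101, 38.7 and 112 FPKM, and Acta2, the smooth muscle actin, at 3070, 1720 and 2650 against 1851, 1023 and 2034 FPKM, where the sets overlapped. Both were chosen after their values were seen. The part of smooth muscle genes in the differences at skeletal muscle genes was not tested. The fibroblast list summed to 1.77 to 3.78 against 3.1 to 5.14 FPKM with Thy1 and Tcf21 at 0, the blood and endothelium list to 0.706 to 0.978 against 0.659 to 1.49, and the cartilage and bone list to 17.8 to 24.1 against 14 to 19.6 with Acan, Bglap and Ibsp at 0. The neural list summed to 14 to 25.7 against 36.4 to 120 FPKM through Tubb3, with Sox10 at 0, and the epithelial list to 6.2 to 9.16 against 11.5 to 26.1 through Krt14, with Epcam and Krt5 at 0.

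The growth libraries of the same lines did not enter the choice by differentiated scores, though they were part of the same component analysis. Over 10555 genes, limma called 28 higher (0.265%) and 2 lower (0.0189%) in the H3mm lines, and 106 were separated higher (1.00%) and 27 lower (0.256%). Of the 189 genes separated higher in differentiated cells, 79 were measured in growth, 69 of them with the same sign and 25 separated, and their median growth difference was 0.587. Of the 75 separated lower, 72 were measured, 56 with the same sign and 5 separated, with a median of -0.230. Over all genes tested in growth the median difference was -0.0354. The growth calls depended on which line was left out. Without H3mm12, H3mm13 or H3mm16 limma called 1, 0 and 1 genes higher and 0 lower, without H3.2 8 higher and 4 lower, without H3.1 48 and 8, and without H3t 43 and 17.

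Of the 28 genes called higher in growth, 1 is on the sarcomere list and 1 on the calcium and endplate list. The first, named after its values were seen, is Tnnc2. It was at 4.69, 2.85 and 3.3 against 0.57, 1.11 and 0.968 FPKM in growth, with a difference of 1.28 ± 0.19 (SE) (adjusted p = 0.0462). The other is Jsrp1, a protein of the sarcoplasmic reticulum junction chosen after its values were seen, at 11.3, 5.21 and 5.48 against 0.621, 1.22 and 0.776 FPKM (2.09 ± 0.27 (SE), adjusted p = 0.0416). Both were thus higher in the H3mm lines before serum was lowered, at levels far under those of differentiated cells. Of 18 sarcomere genes measured in growth, 9 were separated higher, with a median of 1.08, and of 12 calcium and endplate genes 5, with a median of 0.845. The filter takes the mean of all 6 libraries, so genes low in the H3.1/2 lines can pass through their H3mm values. Tnnc2 and Jsrp1 did so. Listed genes low in both sets were left out, so these counts and medians can lean toward higher values in the H3mm lines. Myog was at 16.9, 12.4 and 7.87 against 0.106, 3.21 and 1.19 FPKM and Myod1 at 68, 26.7 and 29.1 against 1.61, 25.1 and 11.7 FPKM in growth, and neither was called.

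On the list of NRF2 targets and glutathione S-transferases, 2 genes were called higher in growth. Gsta3 was at 4.97, 5.2 and 5.15 against 0.313, 0.659 and 0.875 FPKM (1.93 ± 0.15 (SE), adjusted p = 0.0144) and Nqo1, a quinone reductase chosen after its values were seen, at 199, 196 and 262 against 64.5, 81.2 and 98.7 FPKM (1.42 ± 0.19 (SE), adjusted p = 0.0423). Gsta3 was below 1 FPKM in each H3.1/2 line in growth and passed the filter through its H3mm values. Of 18 genes in that list, 4 were separated higher in growth with a median of 0.542, against a median of -0.144 in differentiated cells. Other genes called higher, Lpl and Wisp2 among them, were chosen after their values were seen, with Lpl at 5.69, 5.7 and 5.86 against 0.708, 1.25 and 1.97 FPKM, Wisp2, a matrix-associated signalling protein, at 6.82, 12.4 and 11.4 against 3.15, 2.06 and 2.83 FPKM. The 2 called lower, named after their values were seen, were Nefl, a neurofilament chain, at 3.2, 1.22 and 2.4 against 33.1, 13.1 and 13.9 FPKM, and Ccbe1, a secreted matrix protein, at 1.3, 1.24 and 1.24 against 9.54, 5.79 and 7.98 FPKM.

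The change with differentiation, taken within each line as differentiated minus growth, was tested between the sets over 10885 genes. It was called higher in the H3mm lines at 1 gene (0.00919%) and lower at 2 (0.0184%). At Errfi1, a feedback inhibitor of the EGF receptor, the level went from 17.3, 15.4 and 19.8 against 22.8, 20.3 and 30.1 FPKM in growth to 18.1, 21.4 and 27.3 against 7.64, 7.83 and 9.56 FPKM in differentiated cells. It was lower after differentiation in each H3.1/2 line and higher in each H3mm line, and the changes differed by 1.75 ± 0.15 (SE) (adjusted p = 0.0281). At Ly6c1 the level went from 92.6, 65.9 and 60.1 against 48.2, 38.8 and 26.7 FPKM to 46.6, 47.4 and 45.8 against 185, 116 and 137 FPKM, higher after differentiation in each H3.1/2 line and lower in each H3mm line (-2.54 ± 0.23 (SE), adjusted p = 0.0289). At Mgp, the matrix Gla protein that restrains calcification, it went from 63.3, 68.5 and 60.9 against 43.4, 46.2 and 16.2 FPKM to 376, 347 and 331 against 984, 871 and 502 FPKM, higher after differentiation in each of the 6 lines and less so in the H3mm lines (-2.08 ± 0.18 (SE), adjusted p = 0.0281). None of the 3 calls remained when H3mm13, H3mm16, H3.1 or H3t was left out (adjusted p of 0.0853 to 0.195), and without H3mm12 only that of Errfi1 did (0.0315). Without H3.2 all 3 remained, among 176 genes called higher and 191 lower.

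**Figure D5:**
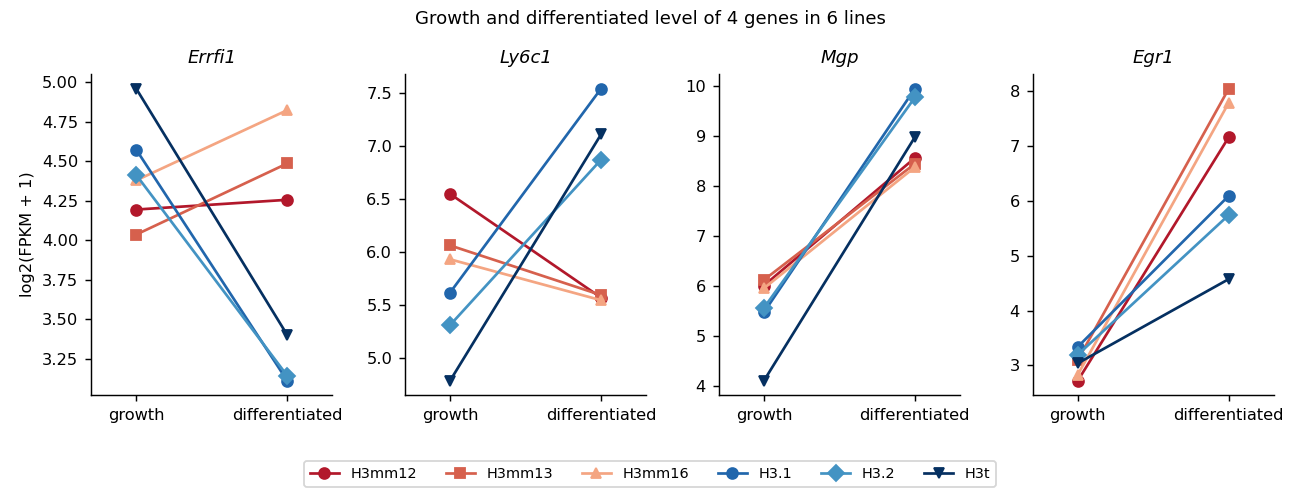
Level of Errfi1, Ly6c1, Mgp and Egr1 in growth and differentiated cells of each line, as log2(FPKM + 1). Lines join the 2 libraries of a line, red for the H3mm lines and blue for the H3.1/2 lines. The changes of Errfi1 and Ly6c1 ran in different directions in the sets, and Egr1 was higher after differentiation in each of the 6 lines, most in the H3mm lines.

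Within the H3mm set, H3mm12 stood apart from the other 2 in several lists. It had the highest mean level of sarcomere genes (7.55 against 6.69 and 6.93) and, at the same time, of mitosis genes (1.83 against 0.912 and 1.31), and the lowest of the ATF4/CHOP branch. Among the 189 genes separated higher, H3mm13 was the H3mm line nearest to the H3.1/2 set at 95, H3mm16 at 64 and H3mm12 at 30. Among the 75 separated lower, H3mm12 was nearest at 45. The H3.3, H3mm7 and H3mm11 lines were not all on the side of either set. At the genes separated higher, 127, 152 and 144 of 189 values in H3.3, H3mm7 and H3mm11 lay at or below the highest H3.1/2 value, while at the genes separated lower 44, 28 and 57 of 75 lay at or below the highest H3mm value.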

How the data were processed

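mRNA-Seq libraries of GFP-H3 C2C12 lines were analysed, 1 per line and state. Reads were aligned by the authors to mm9 (TopHat2 2.0.8), and cuffdiff of Cufflinks 2.0.1 at default settings gave the deposited FPKM values. Reads shared by near-identical H3 genes cannot be assigned with certainty. The column for H3t carries the name H3mmT and was matched to the H3t sample by its label. Read depth is unknown.

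From the FPKM table, log2(FPKM + 1) was computed for genes with a mean of at least 1 FPKM over the libraries fitted. The sets were compared in differentiated cells, in growth and for the change within each line, using limma 3.58.1 (R 4.3.3) with trend and robust settings and Benjamini-Hochberg adjustment over all genes tested. Wild-type libraries and the lines outside the group entered no test of the main comparison. The change used the difference of each line's 2 libraries as 1 value per line. The PC scores were recomputed on log-transformed FPKM of the GFP-H3 libraries, each scaled to the same mean and spread.

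Named genes were the 10 largest in each direction among those called, filled with separated genes in order of the moderated statistic, up to 4 of each list by size of difference, the H3 genes in the table, and genes called for the change. Genes outside this rule whose values are printed are marked as chosen after their values were seen, Cdca3 by its promoter window. Members and lists were chosen with earlier results of these data known. The code was tested on simulated data. Alternatives were a pseudocount of 0.1 FPKM, means of at least 5 FPKM, no filter, quantile and median-ratio scaling, limma without trend or robust settings, the other lines as a further group, no minimum difference, and each line left out in turn. ChIP-seq and 3′-end libraries were not analysed here. Sequences were read from the NCBIM37 genome and from the RefSeq promoter table for GRCm38.p6, and the files of each build were kept apart.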

Additional observations from a re-analysis of the deposited data

Results flagged for a closer look

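At 3 genes the change with differentiation differed between the sets by limma's test of the difference itself. Ly6c1 had a difference in change of -2.54 on the log2(FPKM + 1) scale, H3mm minus H3.1/2 lines, Mgp of -2.08 and Errfi1 of 1.75, with the levels given above. Each difference had the same sign under every alternative run.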

How the results depend on the processing

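No paired analysis was possible between the sets because each line and state has 1 library and no replicate number pairs an H3mm line with an H3.1/2 line. The change with differentiation pairs the libraries of each line. Counts called in differentiated cells (1 higher, 0 lower) were 9 and 2 with a pseudocount of 0.1 FPKM, 4 and 2 with means of at least 5 FPKM, 0 and 0 with no filter, 2 and 0 after quantile normalization, 2 and 1 after median-ratio scaling, 11 and 2 in limma without trend or robust settings, and 22 and 4 with the H3.3, H3mm7 and H3mm11 lines as a further group. Leaving out each line gave 0 to 189 higher and 0 to 77 lower, the upper values without H3.2. Separated genes (189 and 75) ran from 189 to 336 higher and 54 to 223 lower when a line was left out, again highest without H3.2, and 128 were lower without H3mm12. The 75 became 139 with a pseudocount of 0.1 FPKM and 41 with means of at least 5 FPKM. In growth, calls (28 and 2) became 24 and 1 with the lower pseudocount, 2 and 0 with means of at least 5 FPKM and 18 and 1 after quantile normalization, and ran from 0 to 48 higher and 0 to 17 lower with a line left out. Separated genes in growth (106 and 27) became 166 and 44 with the lower pseudocount and 65 and 16 with means of at least 5 FPKM. For the change, calls (1 and 2) became 2 higher with means of at least 5 FPKM and 18 and 8 after quantile normalization, and ran from 0 to 176 higher and 0 to 191 lower with a line left out, highest without H3.2. Over 100 named genes and their alternatives, 1172 values kept direction and side of the threshold, 106 passed it anew (59 of them without H3.2), 4 lost it and 2 changed sign. Gm12657 was the gene that lost its call. The differences that changed sign were Hspa5, at -0.77 over 6 lines, -1.28 without H3t and 0.06 without H3.2, and Nqo1, at -0.25, -0.47 without H3.2 and 0.05 without H3t. Apart from the number of lines, the cause was not tested. With a left-out line, 2 lines stand for a set. FPKM without read counts sets no limit of detection, and a value of 0 may be a failed estimate.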
